A study of Homo sapiens with 8 samples.

Results

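The response of scrambled-hairpin breast cancer cells to interleukin-13 (IL-13) was read on 4 of the 8 expression arrays of the series, 2 from MIV-Luc-shSCR (− IL-13) cells and 2 from MIV-Luc-shSCR (+ IL-13) cells. MIV, or MCF10CA1a, is the metastatic member of the human MCF10A mammary epithelial progression series, and MIV-Luc cells carry a luciferase gene. The shSCR cells hold a lentiviral pLKO vector with a scrambled small hairpin RNA, were selected with puromycin and were used as a pool, so that a single transduced line stands for the control. The (+ IL-13) cells were kept for 16 h with IL-13 at 20 ng/ml and the (− IL-13) cells were mock-treated. All groups grew in medium with horse serum, insulin, EGF, cholera toxin and hydrocortisone. The other 4 arrays come from the matching line, MIV-Luc-shIL13Rα2#2, in which a hairpin targets the IL-13 receptor IL13Rα2, mock-treated or given the same IL-13 dose and time, and they serve here only for comparison. The methods describe the 2 arrays of each group as biological replicates, and the columns are called array A and array B within each group because they carry no replicate number.

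IL-13 is a cytokine of type 2 immunity made mainly by T helper 2 cells and innate lymphoid cells. It binds IL13Rα1, which pairs with the IL-4 receptor chain IL4R, and the Janus kinases on these chains phosphorylate STAT6, a transcription factor that then moves to the nucleus. IL13Rα2 binds IL-13 tightly, has a short cytoplasmic tail and is known mostly as a decoy. In airway and skin epithelium IL-13 is known for inducing eotaxins, serpins and mucus genes and for lowering genes of terminal differentiation.

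The values are log2 expression values, 1 for each gene-level feature of the array, so that a difference of 1 is a 2-fold difference. Of 29141 tested features, 16 genes passed the test in shSCR cells, which required a Benjamini-Hochberg adjusted p under 0.05 in limma and a fold change over 2 and is written as "called" from here on. IL-13 raised 13 of them and lowered 3. A feature without a gene symbol was also called, so that 0.0583% of all features were called, 0.048% as higher and 0.0103% as lower. The 13 genes that rose were SERPINB4, SERPINB3, CCL26, PDCD1LG2, SIDT1, CA2, ABCC2, FAP, LRAT, IL13RA2, SLIT2, SLC26A2 and DPYD, and the 3 that fell were AGR2, TMEM45A and CEACAM6. Changes ranged from 2.05-fold lower for CEACAM6 to 25.2-fold higher for SERPINB4. For each of the 16 all treated arrays lay on the same side of the mock arrays, as did 36.7% of all features (18.6% higher and 18.1% lower). The calls were made on these same arrays, so that this separation is no further evidence for them. PLXDC2 had an adjusted p of 0.0327 but a log2 difference of 0.98, just under the fold, and was called after a further quantile normalization. In RNA of whole cultures a change in a few cells and a change in every cell cannot be told apart. Calls other than the 2 serpins needed all 4 shSCR arrays: without any 1 of them, SERPINB3 and SERPINB4 were the only genes called, and without any 1 of the other line's arrays, which add to the estimate of the spread, 8 to 10 genes were called.

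**Figure D1:**
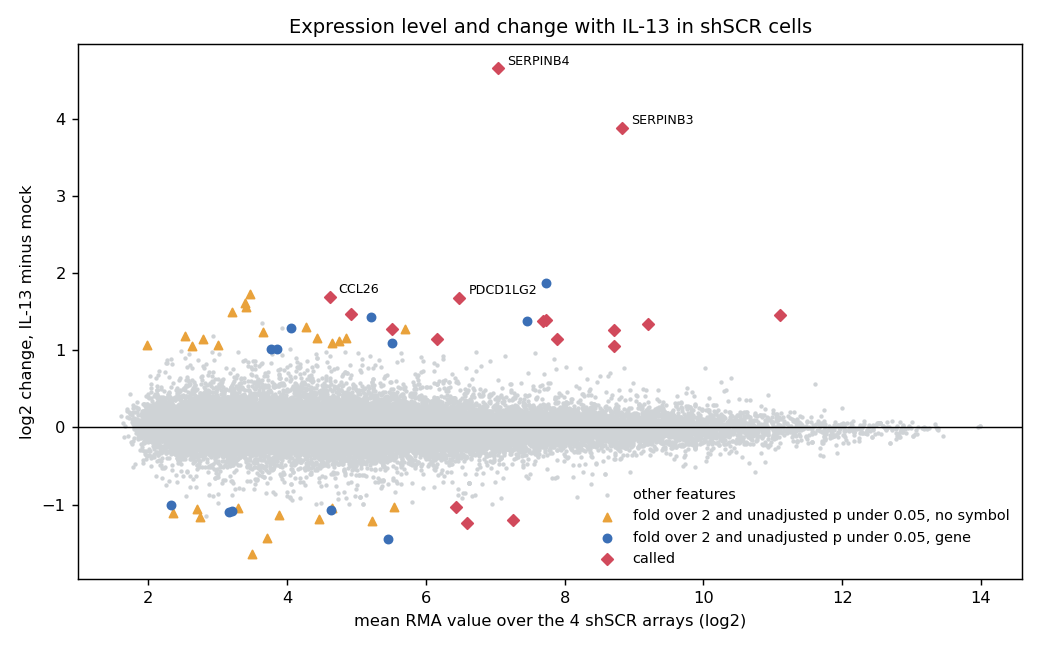
Mean log2 expression value over the 4 shSCR arrays (horizontal axis) against the log2 difference between IL-13 and mock (vertical axis), 1 point for each of 29141 features. The called features (red) span low to high levels, SERPINB4 and SERPINB3 stand apart at the top, and features without a gene symbol (orange) gather at low levels.

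Array medians lay between 5.02 and 5.06 over all 8 arrays, a likeness set by the normalization, which forces all arrays to a common distribution. Negative-control feature medians lay between 4.12 and 4.38. The 11 basal epithelial markers averaged 8.35 to 8.46 on the mock shSCR arrays and 8.40 to 8.50 on the IL-13 arrays. Of these markers KRT5, a basal keratin, gave 9.98 and 9.84 on the mock arrays and 9.64 and 9.46 on the IL-13 arrays, and TP63 is described below. None of the 10 leukocyte markers reached an unadjusted p under 0.05, where 6.79% of all features did. Their average was 4.67 and 4.77 without and 4.66 and 4.55 with IL-13. The 8 endothelial markers averaged 4.56 and 4.54 without and 4.47 and 4.47 with IL-13. At an unadjusted p under 0.05, ESAM (0.40) was higher and PECAM1 (−0.43) and EMCN (−0.32) lower (3.64% and 3.15% of all features). PECAM1 read 8.33 and 8.08 without and 7.71 and 7.83 with IL-13, while ESAM and EMCN read below the negative-control medians on all shSCR arrays. The 10 luminal epithelial markers averaged 6.79 to 6.89 without and 6.77 to 6.84 with IL-13. The part of these small shifts in the results was not tested. The average of the 10 fibroblast markers, which include the called gene FAP, was 4.37 to 4.39 without and 4.48 to 4.52 with IL-13. The hairpin target IL13RA2 was lower in the line that targets it, at 6.52 and 6.34 on its mock arrays against 8.07 and 8.09 on those of shSCR cells.

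Among the 15 measured genes of the IL-13 and IL-4 receptor chain, IL13RA2, the decoy receptor, was the only one called. Its values were 8.07 and 8.09 without and 9.36 and 9.33 with IL-13. This is a rise of 1.27 ± 0.11 (log2, SE, 2 arrays a group, adjusted p = 0.0135), or 2.41-fold. The signalling receptor genes did not pass the test: IL13RA1 differed by −0.16 and IL4R by 0.01. The kinase JAK1 differed by 0.16, TYK2 by −0.10 and the transcription factor STAT6 by −0.01. TMEM219, a receptor partner of IL13Rα2, differed by −0.16. The cytokine gene IL13 read 3.76 and 3.99 without and 4.29 and 4.24 with IL-13, a difference of 0.39 (unadjusted p = 0.012, adjusted p = 0.609), and lay near the negative-control medians. The median of the 15 genes was 0.02, beside 0.00 over all features.

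None of the 16 inhibitors of STAT signalling was called. CISH, a STAT-induced inhibitor, read 5.07 and 4.88 without and 5.26 and 5.36 with IL-13, a difference of 0.33 (unadjusted p = 0.031, adjusted p = 0.696). The differences of SOCS1, SOCS2 and SOCS3, which block cytokine receptors, were −0.10, −0.18 and 0.15. The groups overlapped for these 3 genes.

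The largest changes were in SERPINB4 and SERPINB3, neighbouring genes for the squamous cell carcinoma antigens, which inhibit serine and cysteine proteases. SERPINB4 read 4.97 and 4.47 without and 9.36 and 9.38 with IL-13, a rise of 4.65 ± 0.17 (adjusted p = 7.6e-05). SERPINB3 read 6.94 and 6.84 without and 10.70 and 10.85 with IL-13, a rise of 3.88 ± 0.12 (adjusted p = 3.6e-05). Both genes are near-identical copies, so that probes may not separate their transcripts fully. The promoter windows are shown because the genes moved together. In RefSeq (GRCh38.p14) each window runs from 250 bases before the start of the gene to 50 bases after it, SERPINB4 at chr18:63644207-63644506 and SERPINB3 at chr18:63661844-63662143, both on the minus strand and printed in the sense of the gene, with the bases that differ between the windows in capitals.
SERPINB4: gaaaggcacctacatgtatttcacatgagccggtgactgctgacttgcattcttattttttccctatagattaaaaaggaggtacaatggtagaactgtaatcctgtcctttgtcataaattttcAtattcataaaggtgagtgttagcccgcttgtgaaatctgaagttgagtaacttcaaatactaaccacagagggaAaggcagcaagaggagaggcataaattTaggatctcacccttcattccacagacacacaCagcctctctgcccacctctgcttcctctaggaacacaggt
SERPINB3: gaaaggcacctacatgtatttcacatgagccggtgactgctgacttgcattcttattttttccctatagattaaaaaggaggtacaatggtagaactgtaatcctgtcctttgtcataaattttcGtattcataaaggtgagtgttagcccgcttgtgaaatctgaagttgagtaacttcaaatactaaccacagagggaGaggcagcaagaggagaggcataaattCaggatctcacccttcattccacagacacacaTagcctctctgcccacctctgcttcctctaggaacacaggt
The windows were identical at 296 of 300 positions (98.7%) with no gap. Counted from 1 at the 5′ end of the window, with the SERPINB4 base written first, the differences are A126G, A201G, T228C and C260T.

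The other clade B serpins were set beside these. In RefSeq order SERPINB13 lies on one side of the SERPINB4 and SERPINB3 pair and SERPINB11 on the other. SERPINB13, an inhibitor of cathepsins found in squamous epithelium, read 3.45 and 3.37 without and 4.92 and 4.48 with IL-13. Its difference of 1.29 ± 0.20 did not pass the test (unadjusted p = 0.00024, adjusted p = 0.154), and its mock values lay below the negative-control medians. Against those medians its mean with IL-13 was 1.48-fold higher, a value that carries no error. SERPINB11, below the negative-control medians on all 4 shSCR arrays, differed by 0.06. The remaining 9 of the 13 genes, with SERPINB5 (maspin) at −0.01 and SERPINB2 (plasminogen activator inhibitor 2) at 0.10, lay between −0.19 and 0.19, and the median of the 13 was 0.10.

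**Figure D2:**
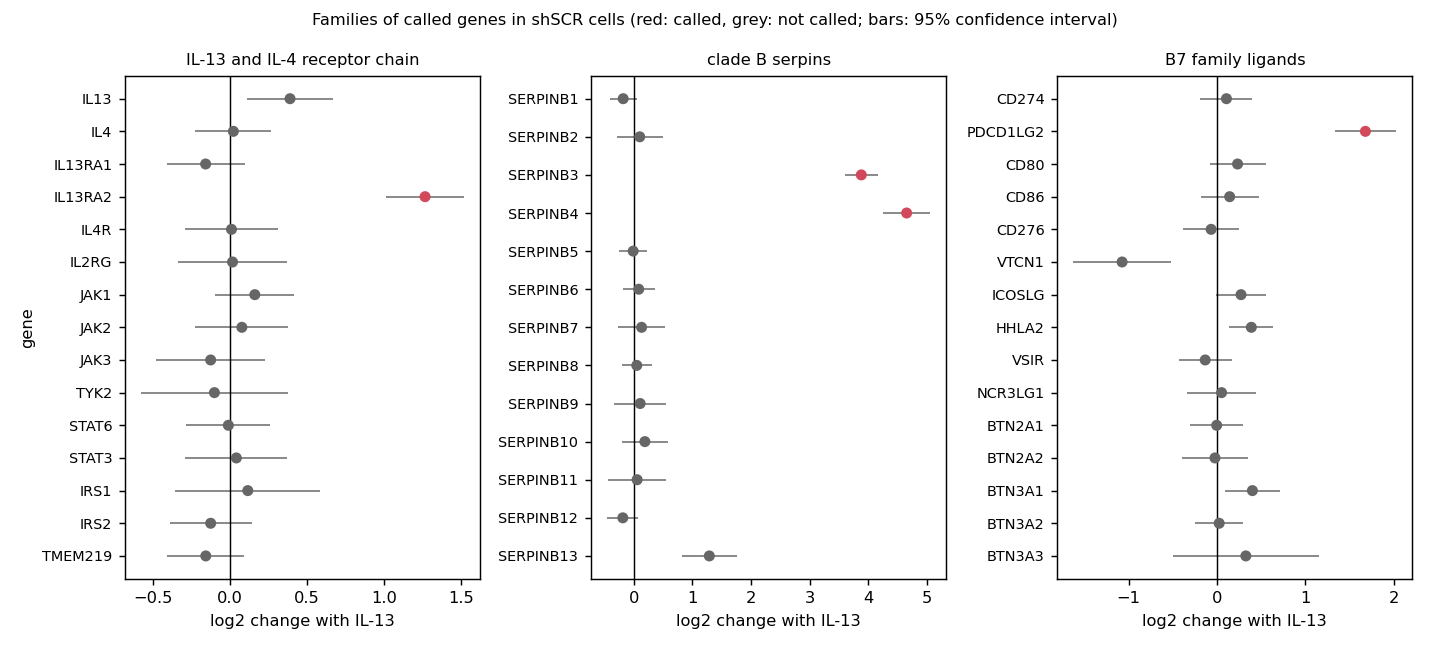
Log2 difference between IL-13 and mock in shSCR cells with its 95% confidence interval, for each measured gene of 3 families (receptor chain, clade B serpins, B7 ligands), called genes in red. In each panel the called genes, IL13RA2 at 1.27, SERPINB4 at 4.65 and SERPINB3 at 3.88, and PDCD1LG2 at 1.68, lie apart from the other members, of which IL13, SERPINB13, VTCN1, HHLA2 and BTN3A1 have intervals that leave out 0.

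Immune ligands formed the next group. CCL26, the eotaxin-3 chemokine that attracts eosinophils through CCR3, read 3.68 and 3.85 without and 5.47 and 5.45 with IL-13. It rose by 1.69 ± 0.14 (adjusted p = 0.0131). Both mock values lay below the negative-control medians of their arrays. Against those medians the CCL26 mean with IL-13 was 2.51-fold higher, a value that carries no error. The other eotaxins CCL24 and CCL11 differed by −0.22 and 0.23 and were not called. Of 26 chemokines CCL26 was the only one called, 3 were higher at an unadjusted p under 0.05 (background 3.64% of all features) and none was lower. The other 2 were CXCL16, at 4.85 and 5.11 without and 5.54 and 5.43 with IL-13 (difference 0.51), and CXCL1, which draws neutrophils, at 8.13 and 8.10 without and 8.73 and 8.49 with IL-13 (difference 0.49).

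PDCD1LG2 encodes PD-L2, a ligand that restrains T cells through PD-1. Its values were 5.62 and 5.67 without and 7.39 and 7.26 with IL-13, a rise of 1.68 ± 0.15 (adjusted p = 0.0143), or 3.21-fold. The neighbouring gene CD274, which encodes the other PD-1 ligand PD-L1, read 6.55 and 6.62 without and 6.67 and 6.72 with IL-13. Its difference was 0.11, with a 95% confidence interval that included 0 (unadjusted p = 0.42). VTCN1, the inhibitory ligand B7-H4, read 5.34 and 5.00 without and 3.96 and 4.24 with IL-13, a difference of −1.07 ± 0.24 that did not pass the test (adjusted p = 0.405), with both IL-13 values below the negative-control medians. Among the 15 B7 family genes PDCD1LG2 was called. At an unadjusted p under 0.05, HHLA2 (0.39) and BTN3A1 (0.40) were also higher and VTCN1 lower (3.64% and 3.15% of all features). The other 11 genes were above that p. HHLA2 read below the negative-control medians on all 4 shSCR arrays.

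Other called genes encode enzymes and transporters. CA2, carbonic anhydrase 2, which hydrates carbon dioxide to bicarbonate, read 10.32 and 10.43 without and 11.80 and 11.88 with IL-13. This was a rise of 1.46 ± 0.11 (adjusted p = 0.0102), or 2.75-fold. SLC26A2, a sulfate transporter, read 5.53 and 5.66 without and 6.65 and 6.83 with IL-13 and rose by 1.14 ± 0.11 (adjusted p = 0.0208). These were the 2 called genes among 21 for anion exchange and sulfate use. Of the others, the bicarbonate and chloride exchanger SLC26A4 (pendrin) differed by 0.09, with all 4 shSCR values below the negative-control medians. CFTR differed by 0.19, and PAPSS2, which activates sulfate, differed by 0.38 with no overlap between the groups.

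ABCC2, an efflux pump for organic anions and glutathione conjugates (MRP2), read 7.12 and 6.95 without and 8.42 and 8.44 with IL-13. It rose by 1.39 ± 0.11 (adjusted p = 0.0102), or 2.62-fold. It was the only gene called among 16 ABC transporters. ABCC1, ABCC3 and ABCC4, pumps of the same family, differed by 0.15, −0.10 and 0.24. ABCC2 also stood in a list of 27 genes of the antioxidant factor NRF2 and of glutathione, of which no other was called. GPX2, GSTA4 and GSTA1, a glutathione peroxidase and glutathione transferases, differed by −0.76, −0.71 and −0.65 at adjusted p values of 0.373, 0.518 and 0.489. Both IL-13 values of GSTA1 lay below the negative-control medians of their arrays. NQO1 differed by −0.05, and the median of the 27 was −0.05.

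DPYD, dihydropyrimidine dehydrogenase, starts the breakdown of uracil and thymine and inactivates fluorouracil. It read 8.16 and 8.21 without and 9.30 and 9.19 with IL-13, a rise of 1.06 ± 0.10 (adjusted p = 0.0207). SLC28A3, a concentrative nucleoside transporter, read 4.85 and 4.12 without and 5.81 and 6.03 with IL-13. Its difference of 1.43 ± 0.23 was larger than that of DPYD but its arrays were more spread and it was not called (adjusted p = 0.171). The later enzymes of the same breakdown route, DPYS and UPB1, differed by −0.01 and 0.08. CDA, cytidine deaminase, and NT5E, which makes adenosine from AMP, differed by −0.59 and −0.35, both at an unadjusted p under 0.05. Over the 28 genes of pyrimidine and nucleoside handling 1 was called and the median difference was 0.00.

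LRAT, lecithin retinol acyltransferase, stores retinol as retinyl esters. It read 8.55 and 8.52 without and 9.73 and 10.02 with IL-13 and rose by 1.34 ± 0.13 (adjusted p = 0.0207), or 2.52-fold. It was the only gene called among 30 of retinoid metabolism. ALDH1A3, which makes retinoic acid, differed by 0.37, DHRS3, which reduces retinaldehyde to retinol, by −0.36, and RDH10, which oxidises retinol, by 0.27, all at an unadjusted p under 0.05. The retinoic acid receptors RARA, RARB and RARG lay between −0.08 and −0.05.

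Another group of genes that rose encodes proteins at the cell surface or outside the cell. FAP, fibroblast activation protein, a surface serine protease of the dipeptidyl peptidase family, read 6.89 and 7.10 without and 8.38 and 8.36 with IL-13. It rose by 1.38 ± 0.12 (adjusted p = 0.0135). DPP4, its closest relative, read below the negative-control medians on all 4 shSCR arrays and differed by 0.05. None of the other 8 genes of that family was called. The fibroblast genes COL1A1, COL1A2 and COL3A1 differed by −0.14, −0.01 and 0.06, and DCN, at 2.71 and 2.56 without and 3.13 and 2.95 with IL-13, by 0.40 (unadjusted p = 0.018). These DCN values all lay below the negative-control medians. Levels of PDGFRB and LUM differed by −0.06 and 0.00.

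SLIT2, a secreted guidance protein that signals through Robo receptors, read 7.34 and 7.30 without and 8.42 and 8.51 with IL-13. It rose by 1.15 ± 0.10 (adjusted p = 0.0143). The related ligands SLIT1 and SLIT3 differed by 0.02 and 0.00, and the receptors ROBO1 to ROBO4 lay between −0.06 and 0.06. SIDT1, a membrane protein linked to the transport of nucleic acids, read 3.99 and 4.39 without and 5.80 and 5.52 with IL-13, a rise of 1.47 ± 0.17 (adjusted p = 0.039). Of its mock arrays, array A lay below the negative-control median of that array. It had the widest spread between mock arrays among the called genes after SERPINB4.

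**Figure D3:**
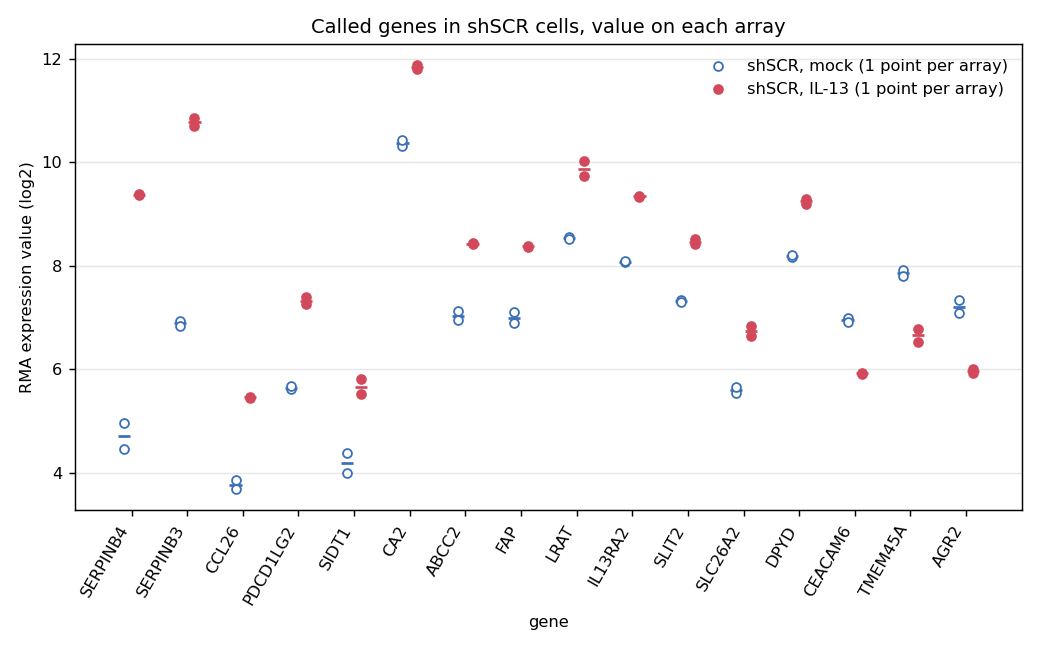
Log2 expression value of each of the 16 called genes on each of the 4 shSCR arrays, mock in open blue and IL-13 in filled red, with short lines at the group means. The 2 arrays of each group lie close together relative to the step between the groups, which the call itself favours. The widest mock pairs are those of SERPINB4 (4.97 and 4.47) and SIDT1 (3.99 and 4.39).

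The 3 genes that fell are known from epithelia. AGR2, a protein disulfide isomerase of the endoplasmic reticulum needed for mucin folding, read 7.09 and 7.33 without and 6.01 and 5.93 with IL-13. It fell by 1.24 on the log2 scale (SE 0.12, adjusted p = 0.0208). CEACAM6, a surface adhesion molecule of the carcinoembryonic antigen family, read 7.0 and 6.91 without and 5.91 and 5.93 with IL-13 and fell by 1.04 (SE 0.12, adjusted p = 0.0496). With the arrays shifted to a common median, CEACAM6 was no longer called. TMEM45A, a membrane protein of keratinised epithelium, read 7.91 and 7.80 without and 6.78 and 6.53 with IL-13 and fell by 1.20 (SE 0.13, adjusted p = 0.0343).

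Of the 31 mucous and secretory genes AGR2 and CEACAM6 were the only ones called. CEACAM5, next to CEACAM6 in RefSeq order, read 8.01 and 7.50 without and 7.09 and 7.16 with IL-13, a difference of −0.63 (unadjusted p = 0.0073, adjusted p = 0.546). AGR3, next to AGR2, differed by −0.05. GCNT3, which branches mucin glycans, was higher: it read 6.62 and 6.91 without and 8.22 and 8.06 with IL-13, a difference of 1.38 ± 0.20 that was not called (adjusted p = 0.125). SPDEF and FOXA3, factors of goblet cell differentiation, differed by 0.01 and 0.15, CLCA1 by 0.22 and MUC5B by −0.03. Both AGR3 and CLCA1 read below the negative-control medians on all 4 shSCR arrays. Among 21 enzymes of mucin-type glycans 3 were higher at an unadjusted p under 0.05 (3.64% of all features) and none was lower. Besides GCNT3 these were GALNT7 (0.49) and GALNT4 (0.33), which add the starting sugar.

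A further 12 genes had a fold change over 2 and an unadjusted p under 0.05 without being called, where 0.192% of all features met that rule. TNFAIP6, which carries heavy chains onto hyaluronan during inflammation, had the largest difference of them. It read 6.85 and 6.74 without and 8.57 and 8.75 with IL-13, a difference of 1.87 ± 0.29 (unadjusted p = 0.00022, adjusted p = 0.145). Among 19 genes of hyaluronan none was called and 5 were higher at an unadjusted p under 0.05 (3.64% of all features). Besides TNFAIP6 these were the hyaluronan receptor CD44, at 11.34 and 11.30 without and 11.85 and 11.93 with IL-13, the synthase HAS3 (0.51), the depolymerising protein CEMIP (0.39) and the receptor LYVE1 (0.37), which read below the negative-control median on each of the 4 arrays. None of the 19 was lower at that level, and the median was 0.09.

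TP63, a transcription factor that maintains basal epithelium, read 5.06 and 4.87 without and 6.11 and 6.0 with IL-13. The arrays did not overlap, and the difference was 1.09 ± 0.17 (unadjusted p = 0.00019, adjusted p = 0.138), so that TP63 was not called. With an intensity trend in the spread it was called (adjusted p = 0.0125), as were GCNT3, SERPINB13 and SLC28A3. No other gene was called in a list of 30 p63 and basal epithelial genes. The keratins KRT5 and KRT15 differed by −0.36 and −0.26 and the plakin DST by 0.34, each at an unadjusted p under 0.05. KRT14 differed by −0.14, ITGA6 by 0.09 and COL17A1 by 0.14, and the median of the 30 was 0.02.

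CASP14, a protease of the cornifying epidermis, read 6.41 and 5.94 without and 4.59 and 4.88 with IL-13, a difference of −1.44 ± 0.18 (adjusted p = 0.0685). It was called without the dimmest 30% of features (adjusted over fewer features) and with an intensity trend in the spread. Of 36 genes of the cornified envelope none was called, and 6 were lower and 2 higher at an unadjusted p under 0.05, where 3.15% and 3.64% of all features were. SPRR1B, a small proline-rich envelope protein, read 7.48 and 7.42 without and 6.29 and 6.62 with IL-13 (difference −0.99, adjusted p = 0.109). SCEL, sciellin, read 6.90 and 7.07 without and 6.15 and 5.99 with IL-13 (difference −0.91, adjusted p = 0.107). The others were the protease KLK5 (−0.58), the keratin KRT10 (−0.50) and CALML5 (−0.32), while DSG1 (0.58) and KLK13 (0.30) were higher. All 4 shSCR values of DSG1 lay below the negative-control medians. Envelope genes such as FLG (−0.11), LOR (0.02) and SPRR2A (−0.02) were near 0, and the median was −0.04.

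The other genes over 2-fold that were not called were SLC28A3, GCNT3, VTCN1 and SERPINB13, given above, DNASE2B (1.01), the uncharacterised LOC285456 (−1.08) and LOC100134868 (−1.0), and the spliceosomal RNAs RNU5B-1 (1.02) and RNU4-2 (−1.09). RNU4-2 read 3.96 and 3.47 without and 2.56 and 2.69 with IL-13, and RNU5B-1 read 3.44 and 3.24 without and 4.27 and 4.46 with IL-13. Of the 12 genes over 2-fold that were not called, 7 had both values of the lower group below the negative-control medians, namely VTCN1, SERPINB13, DNASE2B, LOC285456, LOC100134868, RNU5B-1 and RNU4-2. In the other line the arrays of the small RNAs with and without IL-13 overlapped.

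Lists of 39 pathways, families and cell types held 813 distinct measured genes, of which 14 were called, in 14 lists. An unadjusted p under 0.05 was reached by 14.9% of them, where 6.79% of all features did, but the lists were drawn up with earlier results of these data known and hold the families of the called genes, so that nothing is read from that excess. Of 34 known targets of type 2 cytokines 5 were called, all higher (SERPINB4, SERPINB3, CCL26, PDCD1LG2 and IL13RA2), where 0.048% of all features were. Other members of that list were not called: TNFAIP6, given above, differed by 1.87, POSTN (periostin) by −0.18, ALOX15 by 0.09, NOS2 by −0.04 and TGM2 by 0.16. POSTN read below the negative-control medians on all 4 shSCR arrays, and ALOX15 near them. HPGD, which inactivates prostaglandins, read 6.94 and 6.86 without and 5.96 and 6.10 with IL-13 (difference −0.87, adjusted p = 0.0843).

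No gene was called in the lists for interferon response, antigen presentation, cell cycle, hypoxia, endoplasmic reticulum stress, cholesterol synthesis, TGF-beta or Wnt. Of 32 interferon-stimulated genes 7 were higher and 3 lower at an unadjusted p under 0.05 (3.64% and 3.15% of all features). IFIT3 read 5.83 and 5.67 without and 6.40 and 6.56 with IL-13 (difference 0.73, adjusted p = 0.145), and IRF1 differed by 0.79 (adjusted p = 0.567). Both mock values of IRF1 lay below the negative-control medians of their arrays. ISG15, the ubiquitin-like modifier, and IFI44L both differed by −0.45, and IFIT1 and OAS1 by 0.15 and 0.03. The immunoproteasome subunits PSMB9 and PSMB8 were higher by 0.57 and 0.38 at adjusted p values of 0.489 and 0.694.

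Among 31 cell cycle genes 1 reached an unadjusted p under 0.05 (6.79% of all features), CCNE1 at 0.61, with MKI67 at 0.03 and CDK1 at −0.12. In the list of 32 hypoxia and glycolysis genes STC1 (stanniocalcin 1), at 7.10 and 7.19 without and 6.45 and 6.09 with IL-13, differed by −0.88 (adjusted p = 0.145). ALDOC and BNIP3 differed by −0.64 and −0.51, while EGLN3 and HK1 were higher by 0.38 and 0.48, and VEGFA differed by 0.04. The complement protease CFI read 4.47 and 4.81 without and 5.65 and 5.41 with IL-13 (difference 0.89, adjusted p = 0.34). HBEGF, a ligand of the EGF receptor, differed by 0.70, the matrix protein TNC by 0.70, SPARC by −0.65, TGFB2 by −0.58 and the Wnt antagonist DKK1 by −0.47, each without overlap of its treated and mock arrays, at adjusted p values between 0.136 and 0.373. The list with the lowest median was that of 22 replication-dependent histones, at −0.17, with 5 genes lower (3.15% of all features) and none higher at an unadjusted p under 0.05 and none called.

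**Figure D4:**
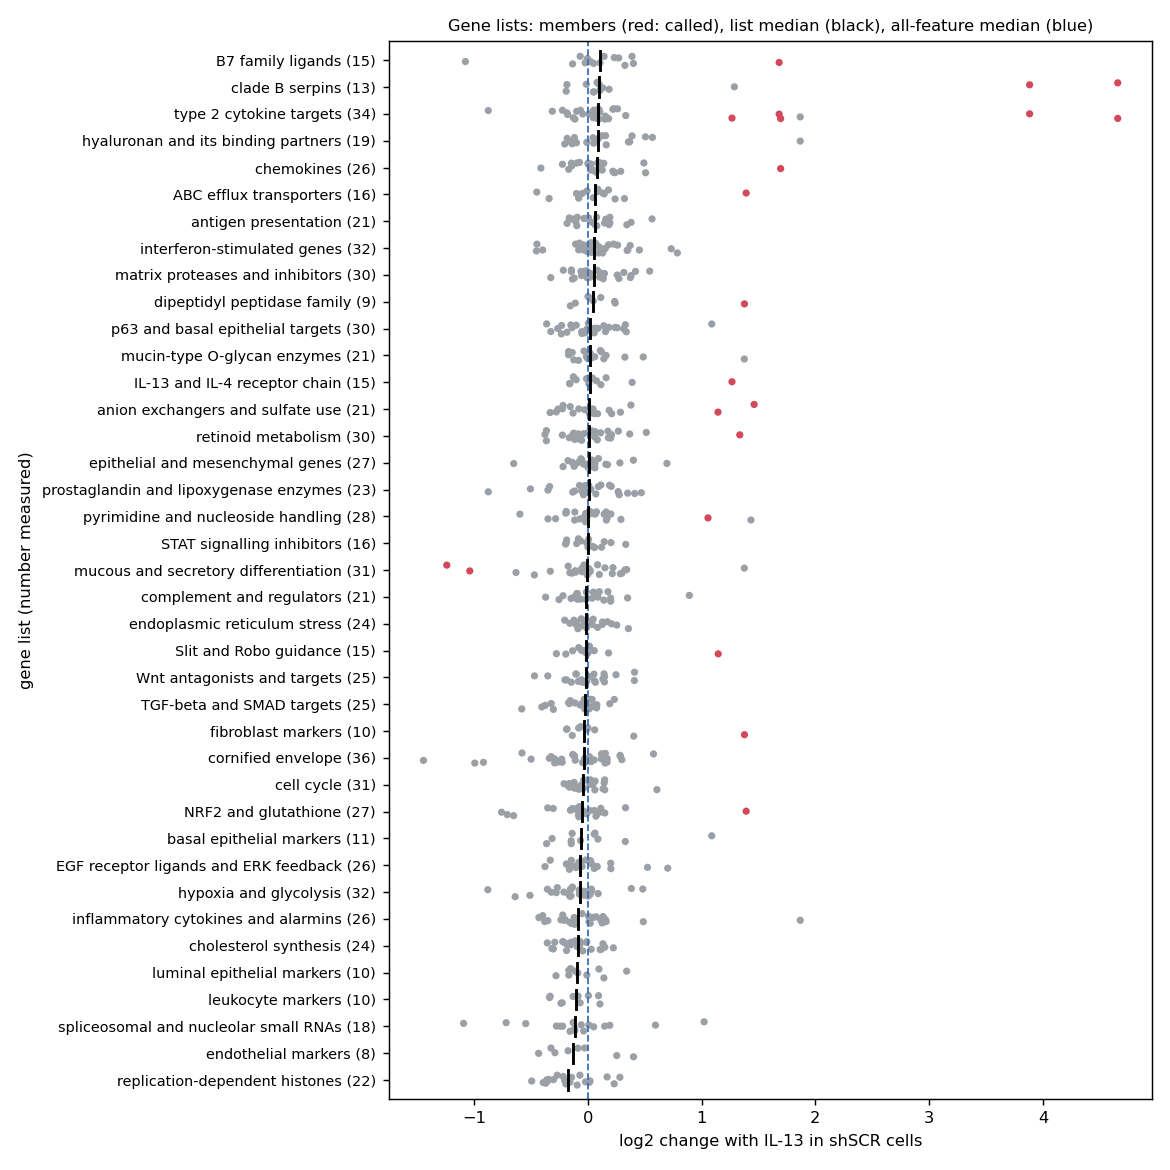
Log2 difference between IL-13 and mock in shSCR cells for the members of 39 gene lists (points, called genes in red), with the median of each list as a black line and that of all features as a dashed blue line at 0.00. List medians lie between −0.17 (histones) and 0.11 (B7 family ligands). Every called gene lies more than 1 log2 unit from 0, because the call requires it.

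The 4 arrays of shIL13Rα2#2 cells measured the same contrast with arrays of their own. Because both contrasts take their spread from all 8 arrays, their p values are not independent of each other. In them all 16 called genes differed in the same direction without overlap between the groups, where 37.4% of all features did not overlap in either direction, and all 16 had an unadjusted p under 0.05 (background 6.93%). The adjusted p and the fold were both passed by 12 of the 16 (background 0.0618%), and by 3 to 8 of them when 1 of the 8 arrays was left out. The 4 that did not pass were CCL26 (0.85, adjusted p = 0.186), SIDT1 (0.74, adjusted p = 0.39), DPYD (0.77, adjusted p = 0.085) and SLC26A2 (0.91, adjusted p = 0.065).

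The change was smaller in shIL13Rα2#2 cells for 9 of the 16 genes and larger for 7. The test of the difference between the lines, the interaction of IL-13 and hairpin in the same limma fit, gave no adjusted p under 0.05 for any feature, the lowest being 0.624. At an unadjusted p under 0.05 (4.47% of all features) stood 6 of the 16. The 16 were called on the shSCR change, which also enters this difference. Neither the 4.47% nor the count of smaller and larger changes is therefore a fair comparison. CCL26 read 3.57 and 3.77 without and 4.37 and 4.67 with IL-13 in that line, and its change minus that in shSCR cells was −0.84 (95% confidence interval −1.30 to −0.38). Its mock values lay below the negative-control medians in both lines, so that the size of this difference is uncertain. SERPINB4 and SERPINB3 started higher there, at 5.70 and 5.74 and at 7.56 and 7.78 on the mock arrays, and reached 9.55 and 9.28 and 10.93 and 10.97 with IL-13. The differences between the lines were −0.96 and −0.60 for these serpins and −0.73 for SIDT1. IL13RA2 went from 6.52 and 6.34 to 8.23 and 8.15 in that line, a change 0.49 larger than in shSCR cells (interval 0.13 to 0.85), and FAP changed by 0.39 more (interval 0.00 to 0.77).

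For the other 10 called genes the interval of the difference included 0. It ran from −0.37 to 0.37 for CA2, −0.26 to 0.44 for ABCC2, −0.31 to 0.36 for SLIT2 and −0.48 to 0.37 for LRAT. For the genes that fell it ran from −0.51 to 0.29 for AGR2, −0.41 to 0.44 for TMEM45A and −0.57 to 0.23 for CEACAM6. Of the genes over 2-fold that were not called, CASP14 read 8.67 and 8.84 without and 7.17 and 6.96 with IL-13 in shIL13Rα2#2 cells and was called there (−1.69, adjusted p = 0.0343). TP63 differed by 0.59 there and TNFAIP6 by 1.42, and neither was called in that line.

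**Figure D5:**
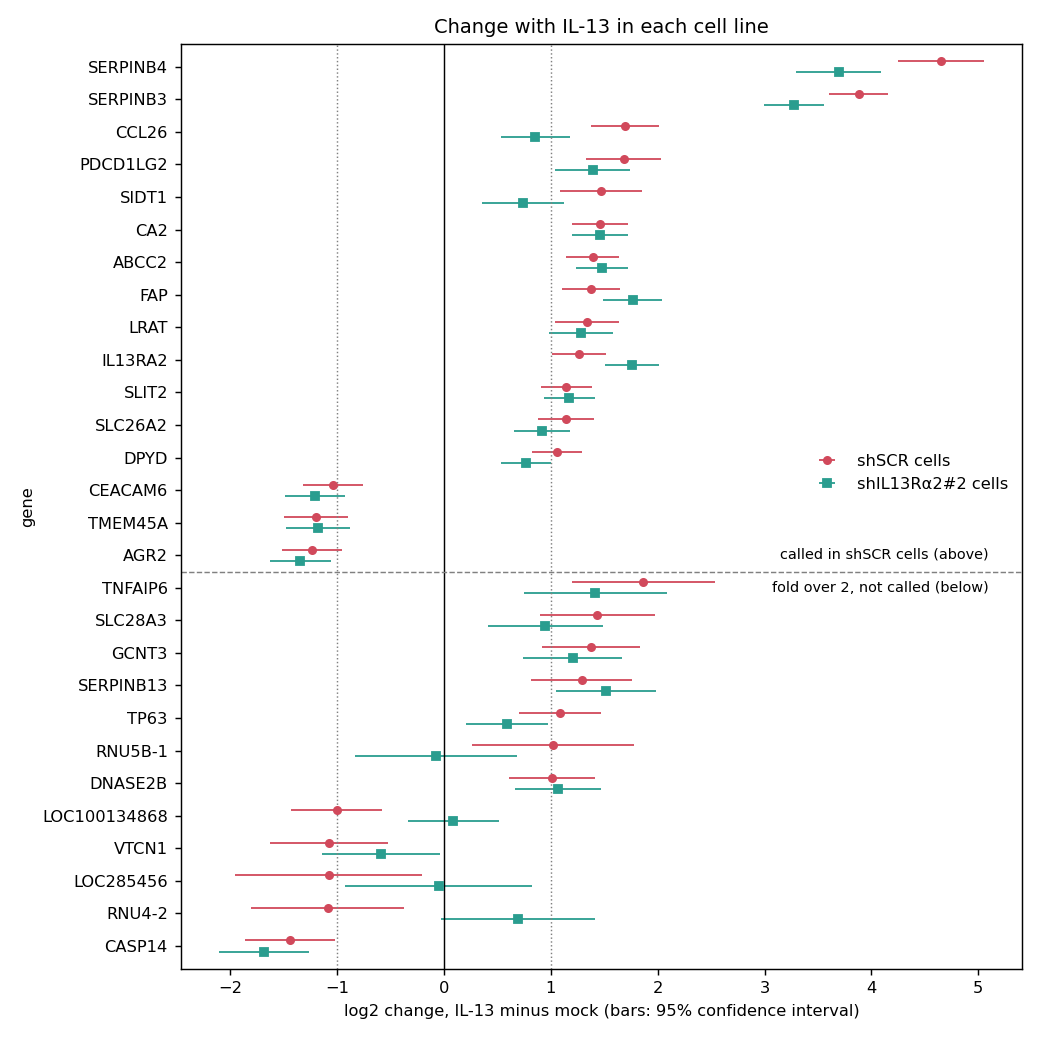
Log2 difference between IL-13 and mock with its 95% confidence interval in shSCR cells (red circles) and shIL13Rα2#2 cells (green squares), for the 16 called genes (top) and the 12 genes over 2-fold that were not called (bottom), with dotted lines at a 2-fold change. All called genes lie on the same side of 0 in both lines, and RNU5B-1, RNU4-2 and LOC100134868 do not.

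Of the 16 called genes 10 carried an annotation of the extracellular space or the plasma membrane, where 31.0% of 15857 annotated genes did. They were ABCC2, CEACAM6, FAP, SLIT2, SLC26A2, AGR2, CCL26, CA2, PDCD1LG2 and IL13RA2. CA2 was the only one annotated to the nucleus, where 31.0% of all annotated genes were.

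RefSeq promoter windows were at hand for 12 of the 16 called genes, not for PDCD1LG2, CA2, FAP and IL13RA2. They were searched on both strands for the palindromic STAT motifs TTCNNNGAA and TTCNNNNGAA, the latter being the spacing that STAT6 is known to prefer, and for TATAAA. TTCNNNGAA was in none of the 12, where 7.66% of 35116 promoter windows held it. TTCNNNNGAA was in the window of 1 gene, CEACAM6 (6.44% of all windows), and TATAAA in those of ABCC2 and CEACAM6 (11.5% of all windows). The CEACAM6 window, at chr19:41755280-41755579 of GRCh38.p14 on the plus strand, is shown with the motif match in capitals, 154 bases before the start of the gene.
CEACAM6: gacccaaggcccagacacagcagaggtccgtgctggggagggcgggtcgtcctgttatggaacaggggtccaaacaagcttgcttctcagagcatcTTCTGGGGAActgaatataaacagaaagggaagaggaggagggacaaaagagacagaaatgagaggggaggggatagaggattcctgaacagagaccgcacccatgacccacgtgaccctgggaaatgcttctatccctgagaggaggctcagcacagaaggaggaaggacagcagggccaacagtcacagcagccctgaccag
CEACAM6 is 1 of the 3 genes that fell. The windows reach only 250 bases before the start, and a match or its lack says nothing about binding.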

How the data were processed

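Total RNA of MIV-Luc cells was amplified, biotin-labelled and hybridised to Affymetrix arrays, 2 arrays for each of 4 groups. The files hold log2 values that the authors deposited, a single value per feature on each array, made with RMA in the Affymetrix Expression Console, version 1 per the labels. RMA corrects the background, forces all arrays to a common distribution and summarises the probes of a gene, so that a shift of all genes together cannot be seen. Of 33297 rows 4156 were controls or spike-ins and were dropped. All 29141 others were tested, 7064 of them without a gene symbol and 38 with a symbol turned into a calendar entry. Of 20193 distinct symbols 19537 matched RefSeq. Every column of sample values was used and assigned to its group by construct and treatment.

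limma 3.58.1 (R 4.3.3) was fitted to all 8 arrays with 4 group means, which share an estimate of the spread on 4 residual degrees of freedom. A gene was called where its fold change was over 2 and its p, adjusted over all features by the Benjamini-Hochberg method, under 0.05. The methods' one-way analysis of variance, other normalizations, filters and samples were alternatives. The median standard deviation between arrays of a group was 0.102 (log2), and precision is limited by how few arrays there are. The analysis was tested on simulated data. Named genes were the called genes, further genes over 2-fold at an unadjusted p under 0.05, up to 3 more members of each list at that p without overlap between the groups, and members of the families of called genes. Members and lists were chosen with earlier results of these data known. Other list members are given with values for context. Promoter windows were taken from RefSeq (GRCh38.p14) and compared with Biopython 1.88.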

Additional observations from a re-analysis of the deposited data

Results flagged for a closer look

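Among the 102 named genes and the called feature without a symbol, 6 moved in opposite directions in the lines. All their IL-13 arrays lay on one side of the mock arrays in shSCR cells and on the opposite side in shIL13Rα2#2 cells. In shIL13Rα2#2 cells 37.4% of all features did not overlap in either direction, so that nothing is read from this count. The called feature without a symbol (array feature 8154130) read 4.81 and 4.95 without and 5.97 and 6.34 with IL-13 in shSCR cells, and 5.95 and 5.96 without and 5.36 and 5.47 with IL-13 in the other line. The difference between the lines was −1.82 (unadjusted p = 2.1e-05, adjusted p = 0.624 in limma), the lowest p of all features for that test. The other 5 genes were not called in either line. The differences between the lines were −0.86 for MMP3, a matrix protease, −0.66 for IL13, 0.68 for the endothelial gene EMCN, 0.63 for RPPH1, the RNA of ribonuclease P, and −0.57 for the lipoxygenase gene ALOX12. None of the 6 passed adjustment over all features, and among these 5 all but ALOX12 had an unadjusted p under 0.05 in limma. MMP3, IL13, EMCN and ALOX12 read between 2.37 and 4.57 on all 8 arrays, around or below the negative-control medians of 4.12 to 4.38. The part of low signal in these values was not tested.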

How the results depend on the processing

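The number of called genes was 16. It was 0 with the methods' test after adjustment, which called 24 genes without adjustment, 28 with limma without adjustment (20 higher and 8 lower) and 2 with limma on the 4 shSCR arrays alone. It ranged from 15 to 21 under the other filters, normalizations, fold thresholds and variance priors, and from 2 to 10 when an array was left out. All 16 genes were among those called in each of these settings except the adjusted methods' test, the 4 shSCR arrays alone, the shift to a common median (15 shared) and the settings without an array (2 to 9 shared). Leaving out an array leaves its group with 1, which is then assumed to vary like the other groups. Of the 16 genes, 12 were called in shIL13Rα2#2 cells under each filter, normalization and prior and 3 to 8 without an array. None differed between the lines at an adjusted p under 0.05 in any setting tried, while 6 did at an unadjusted p under 0.05 in limma. The number of lists with a called gene was 14, and 2 to 13 without an array. All named genes were without overlap between the groups in shSCR cells, so that leaving out an array could not change their direction. None changed direction under the other settings. Of 1310 recomputed differences over 102 genes 101 lost a call and 9 gained it, where only the 16 called genes could lose a call. The gained calls were those of GCNT3, SERPINB13, CASP14, TP63 and SLC28A3 with an intensity trend, CASP14 without the dimmest features, PLXDC2 after quantile normalization and TNFAIP6 without either mock array of the other line (adjusted p = 0.029 in limma). The list medians moved by more than the spread between arrays in 11 of 351 recomputed values, in 10 of 39 lists. No paired analysis was possible because the columns carry no replicate numbers. The 2 arrays a group limit what can be called.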

Other observations

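The genes that lie next to the called genes in RefSeq order were read in the same fit. SERPINB4 and SERPINB3 are neighbours of each other, and 27 further neighbours were measured and not called. Of these, 7 had an unadjusted limma p under 0.05, where 6.79% of all features did, and 6 of the 7 were higher with IL-13. RBM46, next to LRAT, read 5.51 and 5.54 without and 6.24 and 6.53 with IL-13, a difference of 0.86 (adjusted p = 0.17). SERPINB13, at 1.29, is described above. SPICE1 next to SIDT1, CUTC and DNMBP on the sides of ABCC2, and IFIH1 next to FAP differed by 0.38, 0.30, 0.31 and 0.26, at adjusted p values between 0.694 and 0.702. CEACAM5, next to CEACAM6, was the lower one. These genes were chosen after the calls were known, and transcription that runs on from a called gene or probes shared between copies was not tested.

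Features with a gene symbol and features without one made up equal parts of those over 2-fold at an unadjusted p under 0.05, 28 each. Among all 29141 tested features, 7064 had no symbol and 38 a calendar entry in its place. Of the 28 with a symbol, 24 moved without overlap in the same direction in shIL13Rα2#2 cells and 3 had the opposite sign there. Of the 28 without a symbol, 6 moved so and 11 had the opposite sign. In that line 37.4% of all features did not overlap in either direction. The median level was 6.46 with a symbol and 3.57 without, and 25 of those without are annotated as non-coding or small RNA, among them 6 as ribosomal RNA and 5 as small nuclear RNA. The part of their low level in this was not tested.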
